A study of Arabidopsis thaliana with 2 samples.

Results

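The 10 genes described here encode enzymes and regulators of flavonoid and anthocyanin synthesis in Arabidopsis thaliana, and all 10 were found by locus identifier among the 26743 features of the deposited table. They are 5 early enzymes (CHS, CHI, F3H, F3'H and FLS1), 2 late enzymes (DFR and LDOX) and 3 MYB transcription factors (MYB12, MYB111 and PAP1). Their transcripts were compared between jmj17-1 seedlings, which carry a mutation in the H3K4 demethylase gene JMJ17, and wild-type (WT) seedlings, both in the Col-0 background. Whole seedlings were 7 days old and had been raised on 1/2MS plates lacking sucrose, with 16 h of light and 8 h of darkness. Each genotype had 1 library, of 45403267 reads for jmj17-1 and 53890006 for WT, so no difference below has a replicate check and none was tested. The only p-values printed are those the authors deposited. What separates the genotypes cannot be told apart from what separates these 2 libraries. Neither the kind of mutation nor any pooling of seedlings is stated by the labels, and dark-grown seedlings named in their protocol are not analysed here.

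Flavonoids are built from phenylalanine by way of coumaroyl-CoA. Chalcone synthase (CHS), chalcone isomerase (CHI) and flavanone 3-hydroxylase (F3H) make dihydroflavonols, which FLS1 turns into colourless flavonols that absorb ultraviolet light, or DFR and LDOX turn into red and purple anthocyanins. In Arabidopsis MYB12 and MYB111 activate the early genes and FLS1, while PAP1, together with bHLH partners and the WD40 protein TTG1, activates the late genes. Light, through the factor HY5, and sugar both promote the pathway in seedlings.

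The sequences just upstream of 6 of the genes are given because they show how the start of the pathway, its branch point and a regulator are laid out before their transcripts are compared. Each run holds the 250 bases before the annotated start, read 5′ to 3′ along the gene's strand from the RefSeq annotation and genome of TAIR10.1. Capitals mark the G-box CACGTG, a site bound by light-response factors, and the AC elements, which MYB proteins can bind, in the form ACCTACC or its variant ACCTAAC, or in the form ACCAACC or its variant ACCAAAC, each searched on both strands. The windows are chr5:4488226-4488475 for CHS and chr3:19024942-19025191 for F3H, both on the plus strand. They are chr5:2803583-2803832 on the plus strand for FLS1 and chr5:17166033-17166282 on the minus strand for DFR. LDOX has chr4:12006210-12006459 on the minus strand, and MYB12 has chr2:19476076-19476325 on the plus strand.
CHS: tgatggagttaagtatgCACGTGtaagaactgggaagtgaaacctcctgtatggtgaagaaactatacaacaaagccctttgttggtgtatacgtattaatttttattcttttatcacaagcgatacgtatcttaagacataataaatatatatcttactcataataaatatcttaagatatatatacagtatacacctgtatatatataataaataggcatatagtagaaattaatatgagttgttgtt
F3H: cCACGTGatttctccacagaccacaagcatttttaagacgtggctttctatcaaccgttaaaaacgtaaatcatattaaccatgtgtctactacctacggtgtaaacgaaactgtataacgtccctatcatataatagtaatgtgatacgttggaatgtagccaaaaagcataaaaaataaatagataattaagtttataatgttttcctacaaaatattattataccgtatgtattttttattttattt
FLS1: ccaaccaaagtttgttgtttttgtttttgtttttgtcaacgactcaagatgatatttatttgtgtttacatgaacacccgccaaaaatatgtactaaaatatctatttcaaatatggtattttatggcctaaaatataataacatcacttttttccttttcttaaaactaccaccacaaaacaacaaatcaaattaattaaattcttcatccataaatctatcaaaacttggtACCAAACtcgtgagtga
DFR: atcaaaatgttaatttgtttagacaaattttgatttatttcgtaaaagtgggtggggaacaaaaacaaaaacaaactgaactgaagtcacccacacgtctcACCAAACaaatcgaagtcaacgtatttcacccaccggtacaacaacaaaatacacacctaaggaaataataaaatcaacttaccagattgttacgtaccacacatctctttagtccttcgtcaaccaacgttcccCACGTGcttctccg
LDOX: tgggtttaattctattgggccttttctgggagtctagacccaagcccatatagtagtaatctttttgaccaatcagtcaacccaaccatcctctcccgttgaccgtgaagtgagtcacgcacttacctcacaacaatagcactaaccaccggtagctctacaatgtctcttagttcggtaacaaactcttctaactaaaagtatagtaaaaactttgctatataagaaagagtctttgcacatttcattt
MYB12: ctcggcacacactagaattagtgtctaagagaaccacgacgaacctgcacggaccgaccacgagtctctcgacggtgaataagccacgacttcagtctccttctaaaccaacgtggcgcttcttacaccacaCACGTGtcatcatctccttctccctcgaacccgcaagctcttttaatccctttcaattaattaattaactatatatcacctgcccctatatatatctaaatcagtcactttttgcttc

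The CHS window held its G-box from position -233 to -228 relative to the start, and the F3H window from -249 to -244. DFR carried a G-box close to its start, from -14 to -9, and an AC element from -149 to -143. In MYB12 the G-box lay from -118 to -113, and in FLS1 an AC element lay from -17 to -11. Over all 10 genes 4 windows held a G-box, against 6.49% of 27443 windows of protein-coding genes, and 3 held an AC element, against 13.7%. PAP1 was the further gene with an AC element, and CHI, F3'H, LDOX and MYB111 held neither form in these bases. A match is a description of letters and not evidence of a bound factor.

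None of the 10 genes differed by 2-fold or more between the libraries on a log2 scale, with 1 RPKM added to the level in each library before jmj17-1 was divided by WT. The added 1 RPKM understates the change of low genes. By plain ratio PAP1 stood at 2.37, past 2-fold, and F3H as deposited at 1.998. RPKM counts the reads on a gene relative to its length in kilobases and to every 1000000 reads of its library. Of the 10, 9 had a mean of at least 1 RPKM and were among the 18969 features analysed, and PAP1 lay below that level. Among all features analysed 0.97% passed the 2-fold rule, 0.39% higher and 0.58% lower, so 0 of 9 is close to that background. Of the 9 genes 7 had a log2 ratio above 0 and 2 below, with a median of 0.22, whereas all features analysed had a median of 0.04 and 60.5% above 0. When F3H was read together with its antisense partner, as described below, 6 of the 9 lay above 0 and the median was 0.09.

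**Figure D1:**
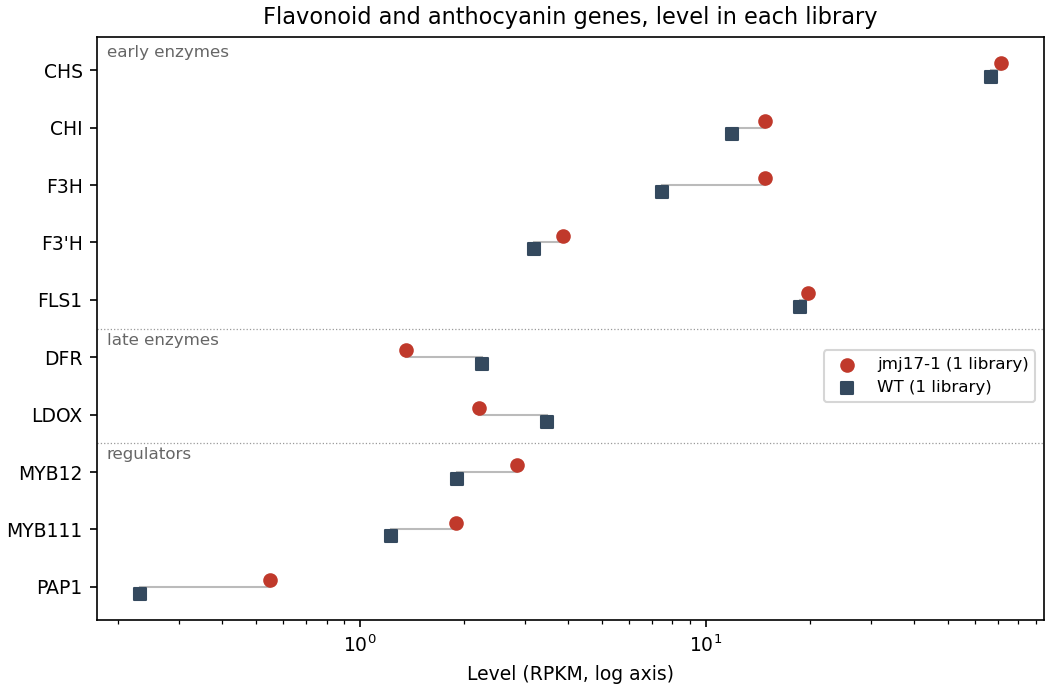
Level of each gene in RPKM (log axis) in the jmj17-1 library (red circles) and the WT library (dark squares), 1 library per genotype, with a grey line joining the pair. CHS stands far to the right in both libraries, DFR and LDOX are further left in jmj17-1 than in WT, and the 3 MYB genes are further right.

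CHS (AT5G13930, chr5:4488476-4490264, plus strand), whose enzyme commits carbon to the pathway, was the most abundant of the 10 transcripts. It stood at 71.2 RPKM in jmj17-1 and 67.0 RPKM in WT, a plain ratio of 1.06 with a 95% counting interval of 1.03 to 1.103. Such intervals come from the reads behind each value by the exact Clopper-Pearson method and cover counting error only. In whole seedlings fewer cells of a type and less RNA per cell cannot be told apart. CHS made up 57.2% of the summed RPKM of the early enzymes in jmj17-1 and 57.9% in WT, counting F3H with its partner. The 2 libraries therefore gave CHS nearly the same level and the same weight within the early pathway. For CHS the reads (about 5509 in jmj17-1 and 6148 in WT) are approximate, since its values did not resolve into whole reads.

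CHI (AT3G55120, chr3:20430059-20431597, minus strand) closes the chalcone ring. It stood at 14.9 RPKM in jmj17-1, from 740 reads, and 11.9 RPKM in WT, from 705 reads, a ratio of 1.25 (1.12 to 1.38). F3'H (AT5G07990, chr5:2560328-2563137, plus strand), the P450 that adds a hydroxyl group to the B ring, stood at 3.85 RPKM in jmj17-1 and 3.18 RPKM in WT, a ratio of 1.21 (1.04 to 1.42). Both enzymes were thus higher in jmj17-1 by more than counting error, by about the same proportion. FLS1 (AT5G08640, chr5:2803833-2805606, plus strand), the main flavonol synthase, stood at 19.8 RPKM in jmj17-1 and 18.7 RPKM in WT. Its ratio of 1.06 had an interval of 0.986 to 1.14, which includes equal levels. Within each library CHS was 3.60 times FLS1 in jmj17-1 and 3.58 times FLS1 in WT.

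F3H (AT3G51240, chr3:19025192-19026872, plus strand) showed the largest log2 ratio of the 10 genes as deposited. It stood at 14.9 RPKM in jmj17-1 and 7.45 RPKM in WT, a plain ratio of 2.00 (1.81 to 2.21). On the scale with 1 RPKM added its log2 ratio was 0.91. An antisense gene, the long non-coding RNA AT3G51238 (chr3:19025110-19026779, minus strand), lies over it. Its single exon, read on the minus strand, ends 82 bases before the F3H start. It covers 1415 of the 1508 exonic bases of F3H, including every coding base of the 3-exon F3H transcript. AT3G51238 was listed at 0 RPKM in jmj17-1 and stood at 6.91 RPKM in WT.

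The read numbers of the pair matched in WT. In jmj17-1 F3H held 1046 reads and AT3G51238 held 0, while in WT each of the 2 loci held 621.5 reads, together 1243. The WT value of AT3G51238 gave a number of reads in steps of 0.5, within 1e-06 of a read, at only 1 of the lengths from 1336 to 2003 bases, and that length of 1670 bases is the annotated one. Summed over both loci the reads came to 23.04 per 1000000 library reads in jmj17-1 and 23.07 in WT. Put at the F3H length of 1549 bases recovered from the values, the pair stood at 14.87 RPKM in jmj17-1 and 14.89 RPKM in WT, a ratio of 0.999 (0.919 to 1.09). The summed reads of the overlapping loci thus differed by less than counting error. Neither the labels nor the file headers say how overlapping genes or strand were handled in counting.

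**Figure D2:**
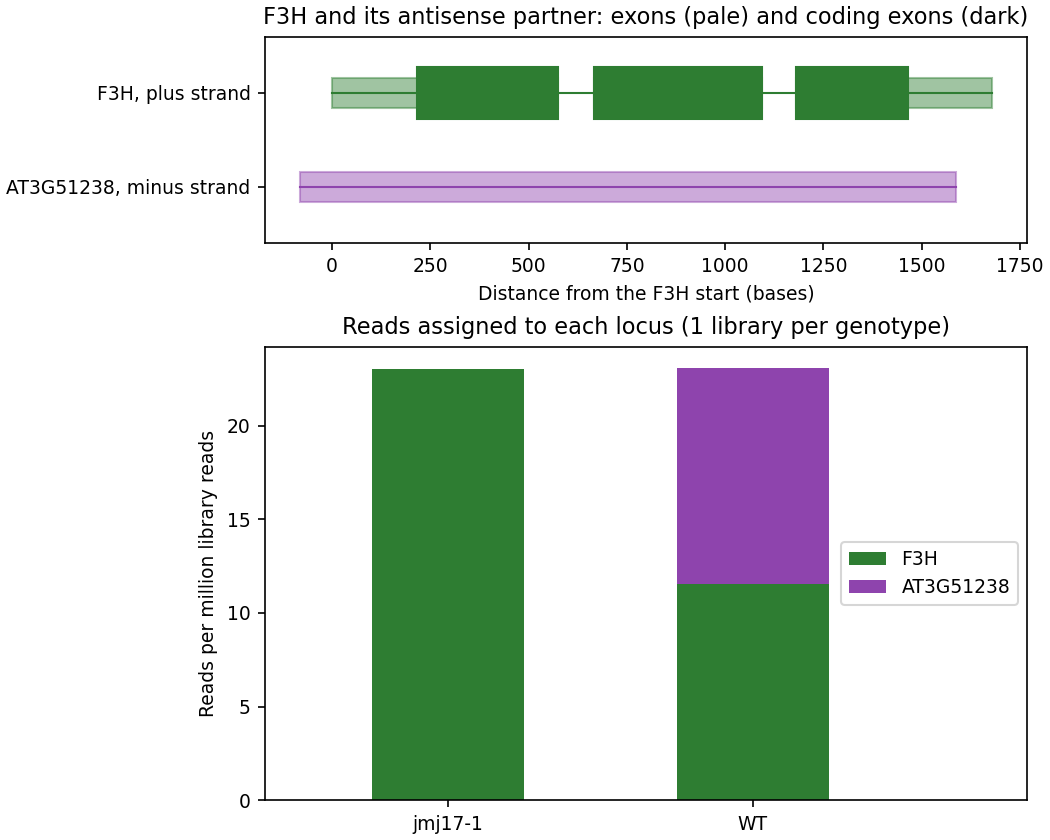
Above, exons of F3H and of AT3G51238 against the distance from the F3H start in bases. Below, reads per 1000000 library reads given to each locus in jmj17-1 and in WT (1 library each): the stacked totals are 23.04 and 23.07, and all of the jmj17-1 reads lie on F3H while the WT reads divide equally.

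The late enzymes were lower in jmj17-1. DFR (AT5G42800, chr5:17164093-17166032, minus strand), which reduces dihydroflavonols at the entry to the anthocyanin branch, stood at 1.36 RPKM in jmj17-1, from 86 reads, and 2.25 RPKM in WT, from 169 reads. LDOX (AT4G22880, chr4:12004726-12006209, minus strand), which forms the coloured anthocyanidins, stood at 2.21 RPKM in jmj17-1, from 126 reads, and 3.47 RPKM in WT, from 235 reads. The ratios were 0.604 (0.460 to 0.788) for DFR and 0.636 (0.508 to 0.793) for LDOX, so both were lower by more than counting error and by a like amount. Their log2 ratios of -0.46 and -0.48 did not reach the 2-fold rule. A stretch of 370 bases of LDOX is 96.2% identical to AT4G22870, which stood at 0.138 RPKM in jmj17-1 and 0.116 RPKM in WT, and the LDOX value is uncertain to the extent that reads were divided between them.

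Seen against the early enzymes, the late branch was a smaller share of the pathway in the mutant library. DFR and LDOX together amounted to 2.86% of the summed RPKM of the early enzymes in jmj17-1 and 4.94% in WT, with F3H and its partner counted together. FLS1 and DFR compete for dihydroflavonols, and FLS1 stood at 14.6 times the level of DFR in jmj17-1 and 8.31 times in WT. CHS stood at 52.4 times DFR in jmj17-1 and 29.8 times in WT. These are ratios of levels per length within each library and have no replicate check.

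Of the markers of leftover seed material the 2 analysed, CRU3 and CRA1, moved the same way as the late enzymes. SESA1, SESA3 and OLEO1 were below 1 RPKM. SESA3 went the other way, at 0.0574 RPKM in jmj17-1 and 0.0242 RPKM in WT, on 2 reads in jmj17-1 and 1 read in WT. The 5 seed storage genes found summed to 2.55 RPKM in jmj17-1 and 14.3 RPKM in WT, with CRU3 at 0.551 RPKM in jmj17-1 and 6.34 RPKM in WT and CRA1 at 1.70 RPKM in jmj17-1 and 7.39 RPKM in WT. The part of this in the DFR and LDOX values was not tested. Genes of proanthocyanidin synthesis, the seed coat branch that also uses DFR and LDOX, were near 0: the 6 in the table ranged from 0.0131 to 0.572 RPKM in jmj17-1 and from 0 to 0.463 RPKM in WT. BAN, the reductase that defines this branch, stood at 0.018 RPKM in jmj17-1 and 0.0303 RPKM in WT, 1 read in jmj17-1 and 2 reads in WT, while TT12 and TT16 were listed at 0 in WT.

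MYB12 (AT2G47460, chr2:19476326-19479597, plus strand), the flavonol activator most active in roots, stood at 2.84 RPKM in jmj17-1, from 190 reads, and 1.904 RPKM in WT, from 151 reads. MYB111 (AT5G49330, chr5:19998823-20001572, minus strand), its close relative most active in cotyledons, stood at 1.89 RPKM in jmj17-1, from 124 reads, and 1.23 RPKM in WT, from 96 reads. The ratios were 1.49 (1.1998 to 1.86) for MYB12 and 1.53 (1.17 to 2.02) for MYB111. Both factors were higher in jmj17-1 by more than counting error, and MYB12 kept nearly the same proportion to MYB111, at 1.504 times in jmj17-1 and 1.54 times in WT. Their known targets CHS and FLS1, and F3H read with its partner, had ratios between 0.999 and 1.06, and CHI had 1.25. The 5 root markers were all above 0 in log2 ratio, against 60.5% of all features analysed, and summed to 42.6 RPKM in jmj17-1 and 35.1 RPKM in WT. The counting intervals of COBL9, EXPA7 and PIN2 included equal levels, and those of WOX5 and PRP3 did not. The 4 green tissue markers were all below 0, against 7491 of the 18969 features analysed, and summed to 17537 RPKM in jmj17-1 and 20207 RPKM in WT. Their ratios were uneven: 0.717 for LHCB2.1, 0.772 for LHCA4, 0.851 for LHCB1.3 and 0.973 for RBCS1A. The part of these differences in the MYB values was not tested.

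PAP1 (AT1G56650, chr1:21233555-21235292, minus strand), the anthocyanin activator MYB75, was the scarcest of the 10 genes. It stood at 0.549 RPKM in jmj17-1 and 0.231 RPKM in WT. The read ratio was exactly 2 before depth was taken into account, and the length nearest the annotation gave 24 reads in jmj17-1 and 12 in WT, although a longer length would give 32 in jmj17-1 and 16 in WT. The ratio of 2.37 had an interval of 1.14 to 5.21 at 24 and 12 reads, and with 1 RPKM added its log2 ratio was 0.33. PAP1 was thus higher in jmj17-1 on few reads, while DFR and LDOX, which it can activate, were lower. Stretches of up to 138 bases are 91.3% to 93.2% identical to MYB114 or PAP2, which stood at 0.0524 RPKM or below in both libraries.

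**Figure D3:**
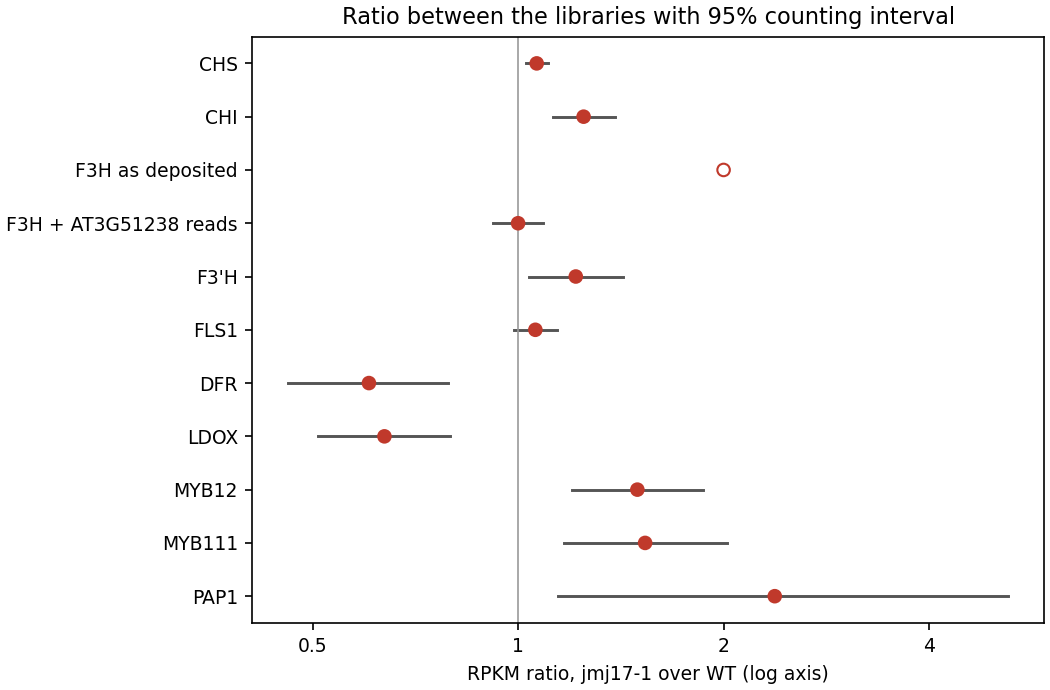
Plain RPKM ratio of jmj17-1 over WT for each gene (log axis), with the 95% counting interval as a bar, from 1 library per genotype. The open circle is F3H as deposited at 2.00, drawn without its interval of 1.81 to 2.21. The point beneath it, at 0.999, is F3H with the reads of AT3G51238.

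The order of levels was similar in the libraries. CHS, FLS1, F3H with its partner and CHI held the first 4 places in both, with F3H and CHI close together in jmj17-1 at 14.87 and 14.86 RPKM. Below them the jmj17-1 order was F3'H, MYB12, LDOX, MYB111, DFR and PAP1, and the WT order was LDOX, F3'H, DFR, MYB12, MYB111 and PAP1. The late enzymes thus stood lower in the jmj17-1 order than in the WT order. Without replicates, neighbours in these orders cannot be separated beyond a spread. With 2 libraries no likeness of pattern between genes can be measured, and no most similar genes are named.

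The rest of the pathway was described through 7 further lists of 54 genes, of which 52 were in the table and 38 averaged 1 RPKM or more. None of the 38 passed the 2-fold rule, against the 0.97% background. Of the 38, 25 had a log2 ratio above 0 and 13 below, with a median of 0.06. All features analysed had 60.5% above 0 and a median of 0.04, so the 38 were close to that background. The counts above 0 in each list below are to be read beside the same 60.5%. The phenylpropanoid entry enzymes, which supply coumaroyl-CoA, had 4 of 8 above 0 and a median of -0.0004. PAL1, a phenylalanine ammonia-lyase, stood at 66.2 RPKM in jmj17-1 and 60.3 RPKM in WT, and C4H, the cinnamate hydroxylase and most abundant of the list, stood at 81.0 RPKM in jmj17-1 and 82.2 RPKM in WT. PAL4 was the other gene furthest from 0, at 5.82 RPKM in jmj17-1 and 6.34 RPKM in WT. The supply end of the pathway was thus nearly level between the libraries.

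Among the other core enzymes 3 of 4 lay above 0. OMT1, a methyltransferase that can make isorhamnetin from quercetin, stood at 168 RPKM in jmj17-1 and 132 RPKM in WT, a ratio of 1.27 (1.24 to 1.302). FLS5, a relative of FLS1, stood at 57.5 RPKM in jmj17-1 and 69.2 RPKM in WT (ratio 0.832, 0.800 to 0.865). Of 4 glycosyltransferases that decorate flavonols 3 were analysed, all 3 above 0. UGT78D2, a glucosyltransferase of flavonols and anthocyanins, stood at 14.5 RPKM in jmj17-1 and 11.99 RPKM in WT (ratio 1.21, 1.11 to 1.32), and UGT89C1, a rhamnosyltransferase, at 24.6 RPKM in jmj17-1 and 21.9 RPKM in WT. UGT89C1 overlaps a gene of the opposite strand, and its value is uncertain for that reason.

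Genes that decorate or carry anthocyanins went both ways, with 4 of 6 analysed above 0 and a median of 0.09. SAT, a sinapoyltransferase of anthocyanins, stood at 3.96 RPKM in jmj17-1 and 6.73 RPKM in WT, a ratio of 0.589 (0.511 to 0.679). BGLU10, a glucosyltransferase-type enzyme of anthocyanins and the most abundant of the list, stood at 17.6 RPKM in jmj17-1 and 11.9 RPKM in WT, a ratio of 1.48 (1.37 to 1.603). TT19, the glutathione transferase needed to bring anthocyanins to the vacuole, stood at 2.47 RPKM in jmj17-1 and 3.44 RPKM in WT (ratio 0.717, 0.546 to 0.938), and 108 of its exonic bases overlap a gene of the opposite strand. The other 3 genes analysed were close to level, with ratios of 1.12 for UGT75C1, 1.09 for 3AT1 and 1.13 for 3AT2, and counting intervals that include equal levels. Below 1 RPKM and not analysed, 5MAT stood at 0.413 RPKM in jmj17-1 and 0.741 RPKM in WT (ratio 0.557, 0.352 to 0.867). UGT79B1, also below that level, stood at 0.523 RPKM in jmj17-1 and 0.722 RPKM in WT (ratio 0.724, 0.465 to 1.11). The list thus held lower, higher and nearly level genes, and SAT, UGT75C1 and 3AT1 also overlap genes of the opposite strand.

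Of the other activators 4 of 9 in the table were analysed, with 2 above 0. HYH, a bZIP factor related to HY5, stood at 6.69 RPKM in jmj17-1 and 4.48 RPKM in WT, a ratio of 1.49 (1.23 to 1.82) from approximate reads. HY5 itself stood at 9.23 RPKM in jmj17-1 and 9.06 RPKM in WT. The bHLH partner EGL3 stood at 2.37 RPKM in jmj17-1 and 2.56 RPKM in WT, and TTG1, the most abundant of the list, at 17.5 RPKM in jmj17-1 and 18.1 RPKM in WT. HYH was thus the activator with the largest difference among those analysed, while the partners of PAP1 were close to level. TT8, the bHLH partner most tied to the late genes, was below 1 RPKM, at 0.413 RPKM in jmj17-1 and 0.339 RPKM in WT.

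All 13 repressors and turnover factors were analysed, 9 above 0 and 4 below, and KFB20 among them had the largest log2 ratio in size of the 38 genes. KFB20, a Kelch F-box protein that targets phenylalanine ammonia-lyase for degradation, stood at 46.7 RPKM in jmj17-1 and 88.2 RPKM in WT, a ratio of 0.529 (0.508 to 0.551) and a log2 ratio of -0.90. KFB-CHS, which targets chalcone synthase for degradation and was the most abundant of the list, stood at 132 RPKM in jmj17-1 and 205 RPKM in WT (ratio 0.644, 0.628 to 0.660). KFB50 stood at 96.3 RPKM in jmj17-1 and 116 RPKM in WT and overlaps genes of the opposite strand, while KFB01 stood at 12.5 RPKM in jmj17-1 and 11.4 RPKM in WT. Of the Kelch F-box genes 3 of 4 were lower in jmj17-1, against 7491 of the 18969 features analysed. These 4 are part of the list and were not fixed as a list of their own. MYB4, a repressor of phenylpropanoid genes, stood at 18.6 RPKM in jmj17-1 and 14.3 RPKM in WT, and MYBL2, a repressor of anthocyanin genes, at 41.4 RPKM in jmj17-1 and 37.7 RPKM in WT. Of the genes in the 7 lists, BAN, TT12, TT16, TT19, UGT75C1, 3AT1, 3AT2, HY5, TT8, KFB50, KFB01, MYB4 and MYBL2 fall outside the rule for named genes and were chosen after their values were seen.

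**Figure D4:**
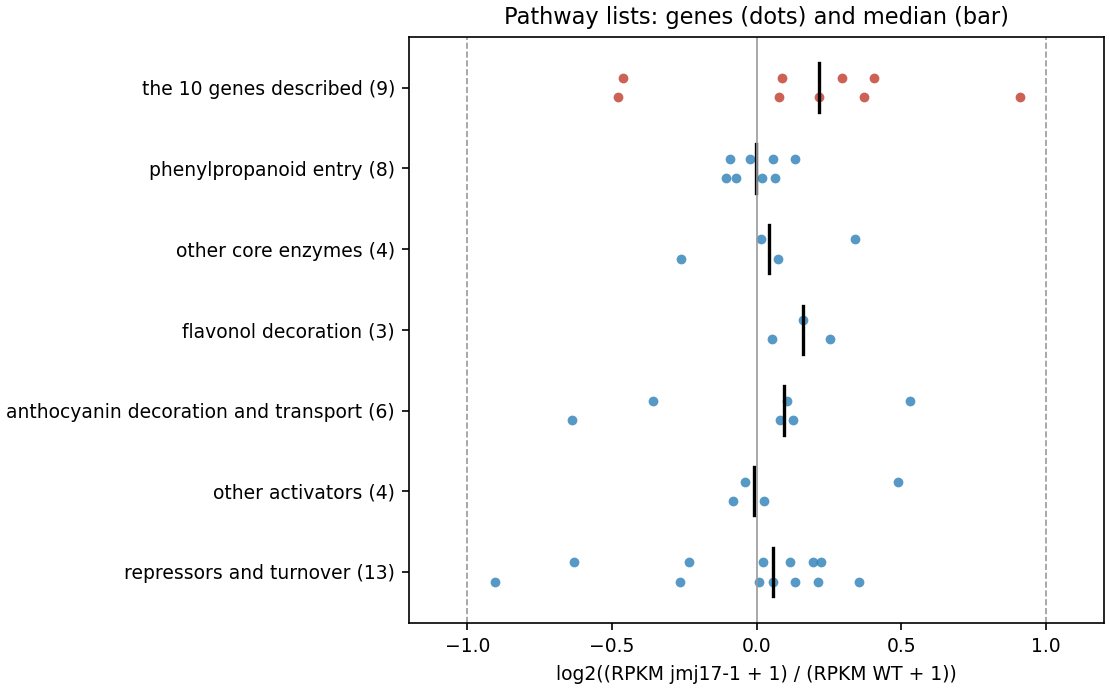
Log2 ratio of jmj17-1 over WT, with 1 RPKM added, for the genes analysed in each list (dots, numbers in brackets) and the list median (black bar), with the 2-fold limits as dashed lines. No dot lies beyond a dashed line, F3H as deposited is the furthest right, and KFB20 is the furthest left.

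In the authors' deposited table the p-values of the 10 genes ranged from 0.116 for F3H to 0.859 for FLS1, and 0 of the 10 were among the 410 genes of the authors' deposited table for the 0.05 limit, which holds 1.53% of the 26743 features. Those p-values rest on 1 library per genotype. Of the 52 other pathway genes 3 were in the authors' deposited table for that limit, against the same 1.53%, namely OMT1, KFB-CHS and KFB20. JMJ17 itself (AT1G63490) stood at 2.90 RPKM in jmj17-1 and 5.48 RPKM in WT, from 619 and 1389 reads, a ratio of 0.529 (0.480 to 0.582). JMJ17 was not listed for the 0.05 limit, although KFB20, at the same ratio of 0.529 and with 88.2 RPKM in WT, was. OMT1 was listed at a ratio of 1.27. The listing thus did not follow the size of the ratio alone.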

How the data were processed

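Libraries from total RNA were made with a TruSeq kit, per the labels' protocols. The deposited values are RPKM calculated by the authors for 26743 features, with 1 column for jmj17-1 and 1 for WT, assigned by their titles, and 0 sample columns were left unassigned. Per the submitters' processing notes, TAIR10 was the build. No source used here names an aligner, a counter, feature lengths or strandedness. The authors also deposited a Z score and a p-value per feature, and lists named for p limits.

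Depths were recovered from the deposited RPKM values. Ratios between libraries were expressed as ratios of whole numbers up to 20000, within a relative 1e-12, after division by 1 depth ratio of 1.187, and the depth was the common divisor of the resulting products of reads and length. Of 24815 features above 0 in both libraries 74.7% resolved in this way. A gene's length was the admissible length nearest its exonic length in RefSeq TAIR10.1, with reads in steps of 0.5. Where values did not resolve, reads were approximated from the RefSeq length.

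The log2 ratio used a pseudocount of 1 RPKM over features averaging 1 RPKM or more, and it understates the change of low genes. With 1 library per genotype a 2-fold size rule replaced a test. The scripts were tested on simulated data. BLAST+ 2.17.0 sought stretches of at least 50 bases and 90% identity elsewhere in the genome. The named genes were the 10 members, JMJ17, the genes that overlap a member and, per further list, the 2 largest differences and the most abundant gene among those averaging 1 RPKM or more; the report lists the genes named outside this rule. The members and lists were chosen with earlier results of these data known, and the summing of F3H with AT3G51238 was added after seeing the data.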

Additional observations from a re-analysis of the deposited data

Results flagged for a closer look

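AT3G51238, the antisense gene over F3H, drew attention because its 0 reads in jmj17-1 stood against 621.5 in WT, a number equal to that of F3H in the same library. Elsewhere, 11 features in all were listed at 0 in jmj17-1 with at least 5 RPKM in WT, of which 5 are in TAIR10.1 and 3 have a listed partner on the opposite strand. In 2 of these 3 pairs, F3H among them, the partners held equal reads in WT, within 0.001 of a read. The opposite case, at 0 in WT with at least 5 RPKM in jmj17-1, held 2 features, and 0 of them are in TAIR10.1.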

How the results depend on the processing

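No paired analysis was possible because each genotype had 1 library, and leaving out a library was not possible for the same reason. Over 7 other settings (pseudocounts, scalings and filters) and the summed F3H reads, 0 members and 0 other pathway genes passed the 2-fold rule. With a pseudocount of 0.1 RPKM F3H as deposited was at 0.99 and PAP1 at 0.97, just short of the log2 limit of 1. Of 60 recomputed log2 ratios of single members 1 changed sign, that of F3H, which was -0.0016 with AT3G51238 summed. As deposited, F3H was at 0.68 with a pseudocount of 5 RPKM. No scaling changed the sign of any of the 10 genes. Over all features, a pseudocount of 0.1 RPKM gave 142 higher, and 5 RPKM gave 25 higher and 49 lower, against 74 higher and 110 lower as reported. At a mean of at least 5 RPKM 71 features were lower, and 0 members lay below 0, since DFR and LDOX do not reach that level. Depth limits PAP1 most, at 24 reads in jmj17-1 and 12 in WT.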
